A study of Mus musculus with 16 samples.

Results

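De novo lipogenesis builds long-chain fatty acids from acetyl-CoA that is made in the cytosol out of mitochondrial citrate. The members are 10 genes of that route and its control, chosen by their symbols: Slc25a1, Acly, Acaca, Fasn, Me1, Scd1, Scd2, Mlxipl, Thrsp and Mid1ip1. They are 10 of the 20295 genes in the count table, and all 10 were among the 12786 genes that passed the filter on low counts and were tested. Slc25a1 carries citrate out of the mitochondrion, Acly splits it into acetyl-CoA and oxaloacetate, Acaca makes malonyl-CoA, and Fasn strings the units into palmitate with NADPH that Me1 can supply. The desaturases Scd1 and Scd2 then place a double bond in the saturated product. Mlxipl encodes ChREBP, a transcription factor that answers to glucose metabolites, Mid1ip1 encodes a protein that binds acetyl-CoA carboxylase and promotes its assembly into active polymers, and Thrsp encodes its paralog Spot 14, which can pair with it. In fat cells the same pool of long-chain acyl-CoA is fed by synthesis and by lipolysis, and acyl-CoA can inhibit the carboxylase.

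The cells were mouse brown adipocytes of the BAT-LgT line, which are brown preadipocytes made immortal by the SV40 large T antigen, taken at day 7 of differentiation. The study used them to ask how fatty acids released by lipolysis change transcription, and whether their activation to acyl-CoA or their oxidation in mitochondria is needed. SR-3420 is a synthetic ligand that frees ABHD5, the activator of the triglyceride lipase ATGL, and so starts lipolysis without a hormone. Triacsin C inhibits long-chain acyl-CoA synthetases, and etomoxir inhibits CPT1, which admits acyl groups to the mitochondrion.

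All 6 groups shared the line, the day and a pretreatment of 1 h, and RNA was taken after 3 h with or without SR-3420. The vehicle group received the solvent only and had 2 samples, replicates 2 and 3. The SR-3420 group received the ligand at 10 µM and had 2 samples, replicates 1 and 3. The triacsin C group was pretreated with 5 µM triacsin C, and a companion group received the same pretreatment and then 10 µM SR-3420. The etomoxir group was pretreated with 50 µM etomoxir, and a companion group received that pretreatment and then 10 µM SR-3420. Each of these 4 inhibitor groups had 3 samples, replicates 1 to 3. The dose of SR-3420 is the one in the sample labels, and the paper's figure legends give a higher one. The count table held no vehicle replicate 1 and no SR-3420 replicate 2. The labels do not say what a replicate is, and the study describes independent experiments.

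Each of the 16 libraries was a bulk RNA-seq library, with total counts from 9452861 to 25670624. Levels are given as CPM, counts per 1e+06 counts of a library after TMM scaling, changes as log2 fold changes from edgeR, and adjusted p values cover the 12786 genes tested. The brown fat markers Ucp1 and Dio2 were near the floor in these cells: group means of Ucp1 ran from 1.22 to 3.20 CPM, and Dio2 had no counts in 4 of the 6 groups. Other markers of brown fat were higher: group means ran from 13.3 to 29.4 CPM for Cidea, 24.2 to 67.2 for Ppargc1a, 7.90 to 34.8 for Prdm16 and 16.7 to 52.9 for Ebf2. Fabp4 was the most abundant gene of the adipocyte marker list in every sample.

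Per kilobase of counted length, Scd1 was the most abundant member, with a mean over the 16 samples of 5134 CPM per kb. Scd2 followed at 521, Fasn at 403, Slc25a1 at 337 and Thrsp at 277 CPM per kb. Acly stood at 179.8, Mid1ip1 at 95.1, Me1 at 68.0, Mlxipl at 32.7 and Acaca at 16.9 CPM per kb. Together the 10 members took 4.91% and 5.52% of all counts in vehicle replicates 2 and 3 and 2.93% and 2.96% in SR-3420 replicates 1 and 3. Under triacsin C they took 4.63%, 4.33% and 4.77% in replicates 1 to 3, and 1.77%, 1.73% and 1.95% with SR-3420 added. The shares were 3.72%, 4.17% and 4.79% under etomoxir and 2.04%, 1.49% and 2.84% under etomoxir with SR-3420. In all 3 settings the SR-3420 samples lay below the samples without it. Scd1 made up most of that sum, and without Scd1 the shares were 1.48% and 1.29% in vehicle and 0.964% and 0.779% in SR-3420. The corresponding shares without Scd1 were 1.23%, 1.32% and 1.23% under triacsin C against 0.677%, 0.656% and 0.585% with SR-3420 added, and 0.928%, 0.929% and 0.781% under etomoxir against 0.641%, 0.475% and 0.587% with SR-3420 added.

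**Figure D1:**
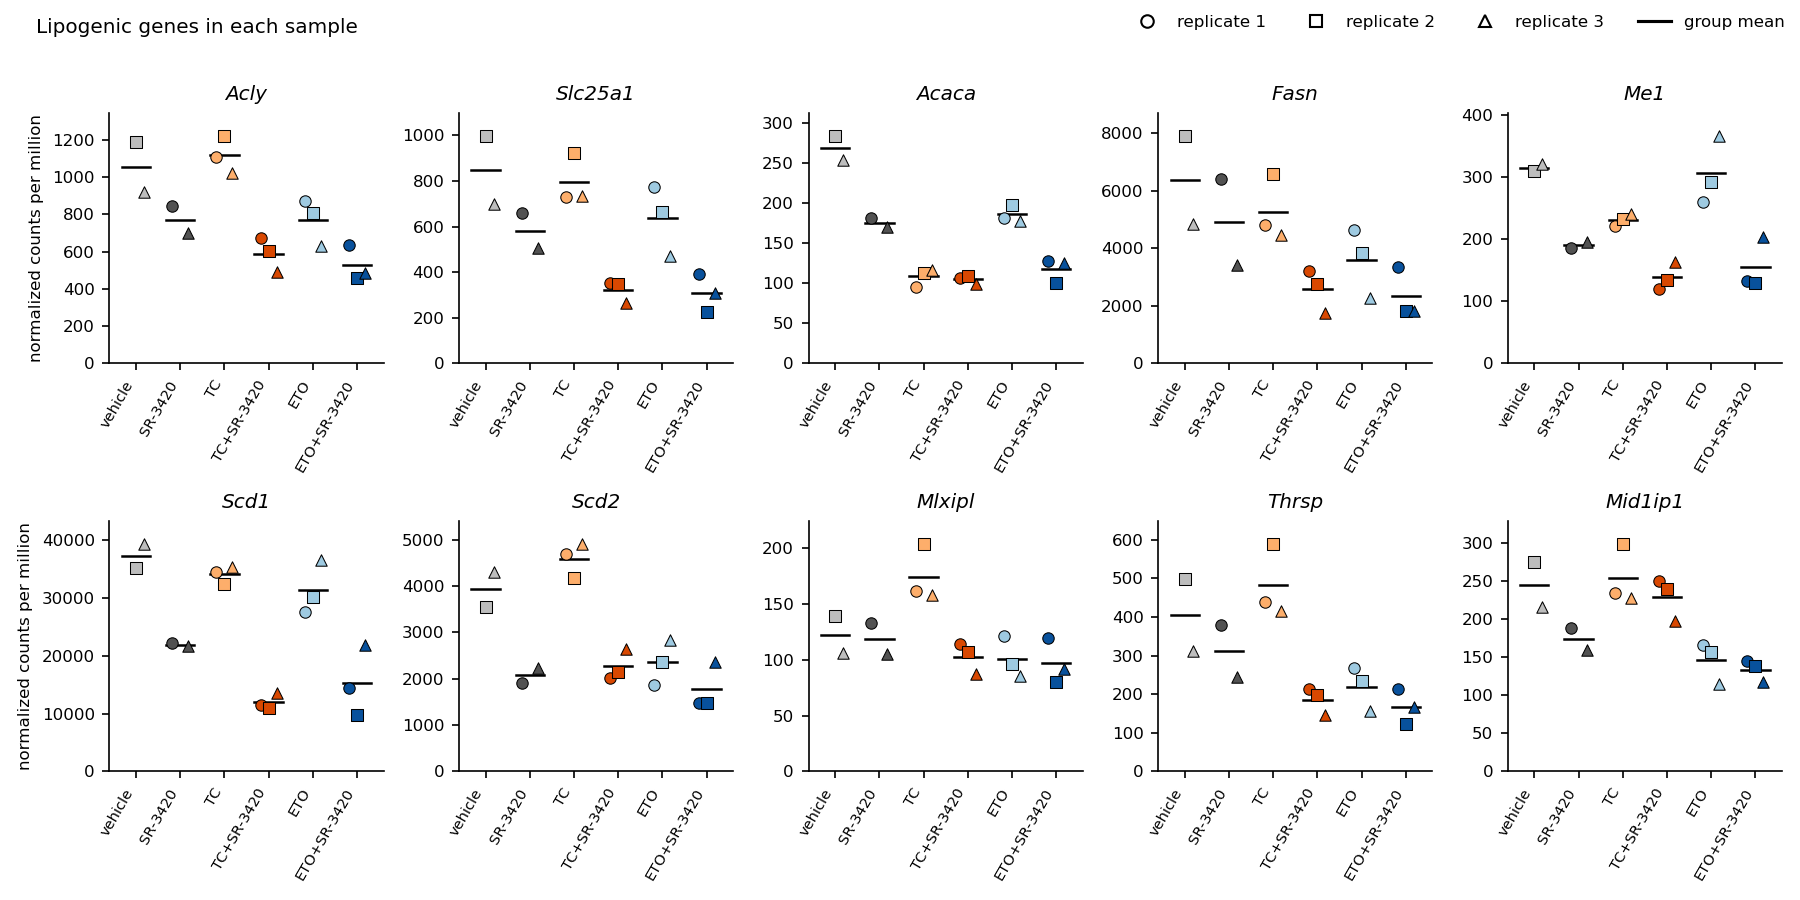
Normalized CPM (vertical axis, 1 panel per gene) of the 10 members in each of the 16 samples by treatment group (horizontal axis); circles, squares and triangles are replicates 1, 2 and 3, and bars are group means. Scd1 lay between 32503 and 35360.4 CPM under triacsin C and between 10926 and 13622 under triacsin C with SR-3420.

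The sequences before the members' starts were read from RefSeq promoters of the mouse build GRCm38.p6, each running from 250 bases before the transcription start to 50 bases after it. The table held 10 promoters of 8 members, with 2 each for Me1 and Mlxipl, and lacked Scd1 and Scd2. The motifs looked for on both strands were CCAAT (the NF-Y box), GGGCGG (a GC box), CACGTG (an E-box) and TCACNCCAC (a sterol element). Of the 32851 promoters in the table, 37.4% held CCAAT, 35.7% GGGCGG, 7.15% CACGTG and 1.24% TCACNCCAC. Of the 10 promoters of members, CCAAT was found in 6 (1 each of Acly, Fasn, Me1, Mlxipl, Slc25a1 and Thrsp) and GGGCGG in 5 (1 each of Acly, Me1, Mid1ip1, Mlxipl and Slc25a1), in Me1 not in the same promoter. CACGTG was found in 2 (Slc25a1 and 1 of Mlxipl) and TCACNCCAC in 1 (the other of Mlxipl), while the Acaca promoter held none of the 4 motifs. The Slc25a1 promoter lies at chr16:17928170-17928469 on the minus strand, that of Acly at chr11:100527951-100528250 on the minus strand, that of Fasn at chr11:120824498-120824797 on the minus strand and that of Thrsp at chr7:97417501-97417800 on the minus strand. Mlxipl promoter 1 lies at chr5:135106641-135106940 on the plus strand and promoter 2 at chr5:135089640-135089939 on the plus strand. Slc25a1 had 2 matches to CCAAT, 4 to GGGCGG and 1 to CACGTG, and Acly had 1 match to CCAAT and 4 to GGGCGG. Fasn had 3 matches to CCAAT, of which a pair on opposite strands overlaps, and Thrsp had 2. Mlxipl promoter 1 had 1 match to TCACNCCAC, and promoter 2 had 1 to CCAAT, 2 to GGGCGG and 1 to CACGTG. A match is a description of the sequence, and binding was not measured. The promoters of these 5 genes are shown, 5′ to 3′ with the matches in capitals, because the 5 moved together within groups, with pairwise Pearson r from 0.92 to 0.98 over the 16 samples taken as deviations from their group means.
Slc25a1: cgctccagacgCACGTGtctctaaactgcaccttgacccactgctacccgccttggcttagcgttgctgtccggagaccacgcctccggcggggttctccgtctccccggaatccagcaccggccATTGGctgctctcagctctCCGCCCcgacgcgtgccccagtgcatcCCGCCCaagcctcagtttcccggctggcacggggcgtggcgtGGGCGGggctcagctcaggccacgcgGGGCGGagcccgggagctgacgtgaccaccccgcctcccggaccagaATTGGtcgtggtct
Acly: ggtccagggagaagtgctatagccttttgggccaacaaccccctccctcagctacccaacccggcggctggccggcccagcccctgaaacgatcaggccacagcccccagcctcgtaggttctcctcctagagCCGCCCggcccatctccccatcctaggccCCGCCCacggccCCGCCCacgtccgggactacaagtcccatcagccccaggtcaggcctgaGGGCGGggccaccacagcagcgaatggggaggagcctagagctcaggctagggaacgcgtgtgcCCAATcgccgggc
Fasn: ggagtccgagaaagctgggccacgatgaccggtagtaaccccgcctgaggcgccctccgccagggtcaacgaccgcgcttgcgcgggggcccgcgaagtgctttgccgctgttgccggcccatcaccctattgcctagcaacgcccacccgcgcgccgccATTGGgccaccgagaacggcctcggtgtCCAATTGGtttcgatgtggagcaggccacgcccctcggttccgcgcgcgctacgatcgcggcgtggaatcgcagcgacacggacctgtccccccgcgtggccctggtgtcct
Thrsp: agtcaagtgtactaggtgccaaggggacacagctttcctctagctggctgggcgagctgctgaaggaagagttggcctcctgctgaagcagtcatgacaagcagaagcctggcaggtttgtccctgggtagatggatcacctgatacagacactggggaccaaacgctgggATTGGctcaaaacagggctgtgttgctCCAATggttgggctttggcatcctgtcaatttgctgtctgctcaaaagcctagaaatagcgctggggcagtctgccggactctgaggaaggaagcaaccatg
Mlxipl promoter 1: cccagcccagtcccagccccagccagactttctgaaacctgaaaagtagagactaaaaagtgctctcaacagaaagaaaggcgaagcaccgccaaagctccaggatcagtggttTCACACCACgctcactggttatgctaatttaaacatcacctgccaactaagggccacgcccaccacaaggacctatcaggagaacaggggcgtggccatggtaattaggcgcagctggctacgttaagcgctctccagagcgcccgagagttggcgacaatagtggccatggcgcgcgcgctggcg
Mlxipl promoter 2: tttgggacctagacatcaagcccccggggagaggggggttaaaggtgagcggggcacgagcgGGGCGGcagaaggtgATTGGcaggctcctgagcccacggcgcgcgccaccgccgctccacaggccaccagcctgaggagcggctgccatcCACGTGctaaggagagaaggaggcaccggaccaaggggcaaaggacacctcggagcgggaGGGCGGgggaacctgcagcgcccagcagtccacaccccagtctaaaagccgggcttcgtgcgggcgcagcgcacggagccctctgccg

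SR-3420 against vehicle asks what the lipolysis activator changed without triacsin C or etomoxir. No group here received a lipase inhibitor. By edgeR 2 of the 10 members were lower, Acaca and Scd2, beside 2.79% of all genes tested. No member was higher by edgeR, beside 4.75% of all genes tested, with 0 at an unadjusted p under 0.05 and 0 by DESeq2. Of all genes tested 12.1% were higher at that unadjusted p and 6.95% by DESeq2. On the lower side 5 members passed an unadjusted p under 0.05, beside 9.7% of all genes, and 3 passed in DESeq2, beside 5.32%. All 10 fold changes were below 0 under each scaling tried, with a median log2 fold change of -0.52 beside -0.00 over all genes tested. In bulk RNA, fewer cells expressing a gene and less of its RNA per cell cannot be told apart. Scaling by total counts alone shifted the median of all genes by -0.114 in this comparison.

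SR-3420 under triacsin C asks the same where acyl-CoA synthetases were inhibited. There 8 of the 10 members were lower, beside 19.7% of all genes tested, and 8 were also lower at an unadjusted p under 0.05, beside 24.3%, and by DESeq2, beside 19.1%. None was higher by edgeR, beside 17.3% of all genes tested, with 0 at an unadjusted p under 0.05, beside 22.2%, and 0 by DESeq2, beside 18.7%. The median log2 fold change of the 10 was -0.97, beside 0.02 over all genes tested, and all 10 were below 0 except that Acaca was at 0.02 with no filter on low counts. Under etomoxir, 5 of the 10 were lower after SR-3420, beside 12.8% of all genes tested, with 5 at an unadjusted p under 0.05, beside 19.1%, and 5 by DESeq2, beside 15.3%. None was higher by edgeR, beside 12.5% of all genes tested, with 0 at an unadjusted p under 0.05, beside 18.1%, and 0 by DESeq2, beside 14.6%. The median log2 fold change under etomoxir was -0.58, beside 0.01 over all genes tested, and all 10 were below 0 under each scaling tried. Leaving out single libraries gave 7 to 8 lower members under triacsin C, 4 to 5 under etomoxir and 0 without an inhibitor. With only the compared groups fitted, the 5 under etomoxir became 2 and the 2 without an inhibitor became 0, while the 8 under triacsin C did not change. Lower calls among all genes moved in that fit from 1637 to 585 under etomoxir and from 357 to 1 without an inhibitor. Under triacsin C they moved from 2514 to 2840. The 3 comparisons have separate control groups and share no samples. They come from 1 fit over all 16 samples, so they share its estimate of the spread. The replicate 3 samples also deviated alike across groups, as given below.

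**Figure D2:**
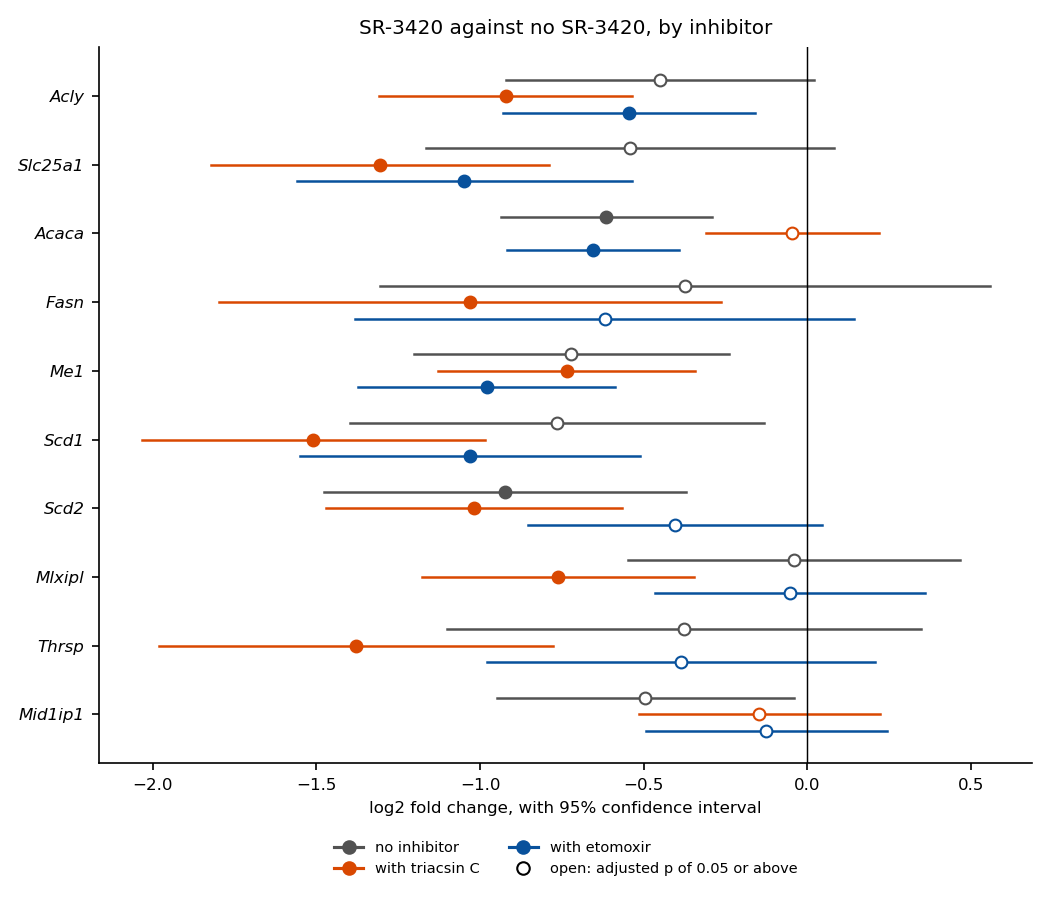
Log2 fold change of SR-3420 (horizontal axis) for each of the 10 members (vertical axis) without an inhibitor, under triacsin C and under etomoxir; points are edgeR estimates, bars their 95% confidence intervals, and filled points have an adjusted p under 0.05. The filled points number 2, 8 and 5 of 10 and all lie below 0, the lowest being Scd1 under triacsin C at -1.51.

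Slc25a1 (NM_153150, chr16:17925304-17928312 in mm9, minus strand) exports the citrate from which cytosolic acetyl-CoA is made. Slc25a1 stood at 998 and 699 CPM in vehicle replicates 2 and 3 and at 658 and 508 in SR-3420 replicates 1 and 3. The triacsin C samples, replicates 1 to 3, read 729.9, 924 and 732 CPM for Slc25a1, and 352, 348 and 264 with SR-3420 added, and the etomoxir samples read 774, 666 and 471, and 391, 223 and 309.7 with SR-3420 added. Every SR-3420 sample lay below every sample of the same pretreatment without it, in all 3 settings. The fall passed the test under triacsin C (log2 fold change -1.31, SE 0.24, adjusted p = 0.000912) and under etomoxir (log2 fold change -1.05, SE 0.24, adjusted p = 0.00596), and without an inhibitor it did not (log2 fold change -0.54, SE 0.29, adjusted p = 0.300). The call under etomoxir was not made when only those groups were fitted, with adjusted p = 0.0542. The mean level fell from 795 ± 111 CPM (SD, n = 3) under triacsin C to 322 ± 49.6 CPM (SD, n = 3) with SR-3420 added.

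Acly (NM_134037, chr11:100337666-100389314 in mm9, minus strand) turns the exported citrate into acetyl-CoA. Acly stood at 1189 and 919 CPM in vehicle replicates 2 and 3 and at 844 and 697 in SR-3420 replicates 1 and 3. With triacsin C, Acly read 1107, 1221 and 1021 CPM in replicates 1 to 3 and 674, 600.3 and 492 in the 3 with SR-3420, and with etomoxir it read 869, 805 and 631 in replicates 1 to 3 and 634, 459 and 486 in the 3 with SR-3420. The groups with and without SR-3420 did not overlap in the vehicle and triacsin C settings, and under etomoxir they overlapped, the highest SR-3420 sample reading 634 and the lowest etomoxir sample 631 CPM. Acly fell under triacsin C (log2 fold change -0.92, SE 0.18, adjusted p = 0.00140) and under etomoxir (log2 fold change -0.55, SE 0.18, adjusted p = 0.0397). Without an inhibitor the change did not pass with 1 mean per group (log2 fold change -0.45, SE 0.22, adjusted p = 0.251) and passed with a replicate block (-0.51, adjusted p = 0.0245). The call under etomoxir rested on single libraries: the log2 fold change was -0.45 (adjusted p = 0.129) without etomoxir replicate 1, -0.51 (adjusted p = 0.111) without etomoxir replicate 2, -0.46 (adjusted p = 0.152) without etomoxir with SR-3420 replicate 2 and -0.49 (adjusted p = 0.101) without etomoxir with SR-3420 replicate 3. With only those groups fitted the adjusted p of Acly was 0.130.

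Acaca (NM_133360, chr11:84008940-84215153 in mm9, plus strand) encodes the carboxylase that makes malonyl-CoA, the committed step. Acaca stood at 284 and 254 CPM in vehicle replicates 2 and 3 and at 182 and 169.8 in SR-3420 replicates 1 and 3. Acaca in replicates 1 to 3 read 95.6, 113 and 117 CPM under triacsin C and 107, 109 and 99.6 under triacsin C with SR-3420. Etomoxir replicates 1 to 3 read 182, 198 and 178 CPM, and those with SR-3420 added 128, 100.1 and 126. Vehicle lay above every other group, and the triacsin C groups with and without SR-3420 overlapped while the other pairs did not. Acaca fell after SR-3420 without an inhibitor (log2 fold change -0.62, SE 0.15, adjusted p = 0.0245) and under etomoxir (log2 fold change -0.66, SE 0.12, adjusted p = 0.00184). Under triacsin C it did not pass (log2 fold change -0.05, SE 0.12, adjusted p = 0.793), and the 95% confidence interval of its log2 fold change ran from -0.31 to 0.22. That value was 0.0112 without triacsin C replicate 3. Group means were 269 ± 21.3 CPM (SD, n = 2) in vehicle, 109 ± 11.5 CPM (SD, n = 3) under triacsin C and 105 ± 4.97 CPM (SD, n = 3) under triacsin C with SR-3420.

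The Acaca call without an inhibitor was lost whenever a library of its own groups was left out. The log2 fold change was then -0.53 (adjusted p = 0.149) without vehicle replicate 2, -0.69 (adjusted p = 0.0738) without vehicle replicate 3, -0.66 (adjusted p = 0.0992) without SR-3420 replicate 1 and -0.56 (adjusted p = 0.118) without SR-3420 replicate 3. With only those groups fitted it was -0.64 (adjusted p = 0.265). The response under triacsin C was tested against the others directly. It differed from the response without an inhibitor by 0.57 log2 (95% confidence interval 0.15 to 0.98), which did not pass adjustment in edgeR (adjusted p = 0.145) and passed in DESeq2 (0.61, adjusted p = 0.0435). Against the response under etomoxir the Acaca difference was 0.61 log2 (95% confidence interval 0.24 to 0.98), with adjusted p = 0.1002 in edgeR and 0.0136 in DESeq2.

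Fasn (NM_007988, chr11:120667272-120685861 in mm9, minus strand) encodes the synthase that makes palmitate. Fasn stood at 7913 and 4850.4 CPM in vehicle replicates 2 and 3 and at 6406 and 3433 in SR-3420 replicates 1 and 3. The triacsin C samples, replicates 1 to 3, read 4799, 6572 and 4468 CPM for Fasn, and 3214, 2778 and 1758 with SR-3420 added, and the etomoxir samples read 4652, 3855 and 2287, and 3362, 1829 and 1833 with SR-3420 added. Only in the triacsin C setting did the groups with and without SR-3420 not overlap, and replicate 3 was the lowest or next to lowest sample of its group in each case. Fasn fell under triacsin C (log2 fold change -1.03, SE 0.36, adjusted p = 0.0364). Without an inhibitor (log2 fold change -0.38, SE 0.43, adjusted p = 0.676) and under etomoxir (log2 fold change -0.62, SE 0.35, adjusted p = 0.225) the change did not pass with 1 mean per group. The triacsin C call was lost without single libraries: the log2 fold change was -1.10 (adjusted p = 0.0573) without triacsin C replicate 1, -0.84 (adjusted p = 0.132) without triacsin C replicate 2, -1.04 (adjusted p = 0.0750) without triacsin C with SR-3420 replicate 2 and -0.82 (adjusted p = 0.134) without triacsin C with SR-3420 replicate 3. Leaving out single samples moved the Fasn value without an inhibitor between -0.89 and 0.02, and it was above 0 without vehicle replicate 2 (0.0207) or SR-3420 replicate 3 (0.00839).

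Me1 (NM_008615, chr9:86474970-86589947 in mm9, minus strand) encodes the cytosolic malic enzyme, a source of NADPH for the synthase. Me1 stood at 310.3 and 321 CPM in vehicle replicates 2 and 3 and at 186 and 196 in SR-3420 replicates 1 and 3. Me1 in replicates 1 to 3 read 222, 232 and 239.9 CPM under triacsin C and 119.8, 134 and 163 under triacsin C with SR-3420. Etomoxir replicates 1 to 3 read 261, 293 and 367 CPM, and those with SR-3420 added 132, 129.9 and 204. Every SR-3420 sample lay below every sample of the same pretreatment without it. Me1 fell under triacsin C (log2 fold change -0.74, SE 0.18, adjusted p = 0.00656) and under etomoxir (log2 fold change -0.98, SE 0.18, adjusted p = 0.00184), and both calls held whichever library was left out. Without an inhibitor the change did not pass in edgeR with 1 mean per group (log2 fold change -0.72, SE 0.22, adjusted p = 0.0685). It passed in DESeq2 (-0.74, adjusted p = 0.0234) and with a replicate block (-0.68, adjusted p = 0.00831).

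Scd1 (NM_009127, chr19:44468940-44482199 in mm9, minus strand) encodes the main stearoyl-CoA desaturase of fat tissue and alone took up to 4.23% of a library. Its counts reached 99.5 per base of counted length, beside at most 12.01 for Scd2, the next of the members, and only one read per position and length was kept. Scd1 levels, shares and fold changes may be compressed by that limit, which was not tested. Scd1 stood at 35174 and 39401 CPM in vehicle replicates 2 and 3 and at 22194 and 21654 in SR-3420 replicates 1 and 3. With triacsin C, Scd1 read 34587, 32503 and 35360.4 CPM in replicates 1 to 3 and 11434, 10926 and 13622 in the 3 with SR-3420, and with etomoxir it read 27573, 30210.0 and 36540.0 in replicates 1 to 3 and 14425, 9794 and 21939 in the 3 with SR-3420. The SR-3420 samples lay below those without it in every setting. Scd1 fell under triacsin C (log2 fold change -1.51, SE 0.24, adjusted p = 0.000366), from 34150.0 ± 1478 CPM (SD, n = 3) to 11994 ± 1433 CPM (SD, n = 3). It also fell under etomoxir (log2 fold change -1.03, SE 0.24, adjusted p = 0.00706), a call that was not made when only those groups were fitted (adjusted p = 0.0968). Without an inhibitor the change did not pass with 1 mean per group (log2 fold change -0.77, SE 0.29, adjusted p = 0.140) and passed with a replicate block (-0.83, adjusted p = 0.0230).

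Scd2 (NM_009128, chr19:44368166-44381352 in mm9, plus strand) is a paralog of Scd1 on the same chromosome. Scd2 stood at 3551 and 4300.1 CPM in vehicle replicates 2 and 3 and at 1906 and 2233 in SR-3420 replicates 1 and 3. The triacsin C samples, replicates 1 to 3, read 4691, 4172 and 4909 CPM for Scd2, and 2007, 2149 and 2639 with SR-3420 added, and the etomoxir samples read 1872, 2357 and 2824, and 1478, 1481 and 2368 with SR-3420 added. The groups with and without SR-3420 did not overlap in the vehicle and triacsin C settings, and under etomoxir they overlapped. Scd2 fell without an inhibitor (log2 fold change -0.92, SE 0.26, adjusted p = 0.0448) and under triacsin C (log2 fold change -1.02, SE 0.21, adjusted p = 0.00202). Under etomoxir it did not pass with 1 mean per group (log2 fold change -0.40, SE 0.21, adjusted p = 0.176), though it did without etomoxir with SR-3420 replicate 3 (-0.67, adjusted p = 0.0230). The call without an inhibitor was lost whichever library of its groups was left out: the log2 fold change was -1.05 (adjusted p = 0.0933) without vehicle replicate 2, -0.77 (adjusted p = 0.245) without vehicle replicate 3, -0.81 (adjusted p = 0.263) without SR-3420 replicate 1 and -1.04 (adjusted p = 0.104) without SR-3420 replicate 3. With no filter on low counts its adjusted p was 0.0682, and with only those groups fitted it was 0.225.

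Mlxipl (NM_021455, chr5:135582761-135614252 in mm9, plus strand) encodes ChREBP, which drives several of the enzymes named here. Mlxipl stood at 139 and 106 CPM in vehicle replicates 2 and 3 and at 133 and 105 in SR-3420 replicates 1 and 3. Mlxipl in replicates 1 to 3 read 161, 204 and 158 CPM under triacsin C and 114, 107 and 87.3 under triacsin C with SR-3420. Etomoxir replicates 1 to 3 read 121, 95.9 and 85.6 CPM, and those with SR-3420 added 119, 80.5 and 92.0. The groups with and without SR-3420 overlapped in the vehicle and etomoxir settings and were apart under triacsin C, where the lowest triacsin C sample read 158 and the highest with SR-3420 114 CPM. Mlxipl fell under triacsin C (log2 fold change -0.76, SE 0.19, adjusted p = 0.00741). It did not pass without an inhibitor (log2 fold change -0.04, SE 0.23, adjusted p = 0.943) or under etomoxir (log2 fold change -0.05, SE 0.19, adjusted p = 0.879). Leaving out single libraries changed the sign of these Mlxipl values. Without an inhibitor it was 0.17 without vehicle replicate 2 and 0.12 without SR-3420 replicate 3, and under etomoxir it was 0.10 without etomoxir replicate 1 and 0.07 without etomoxir with SR-3420 replicate 2.

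Thrsp (NM_009381, chr7:104561467-104566020 in mm9, minus strand) encodes Spot 14, a small nuclear and cytosolic protein induced with the lipogenic enzymes. Thrsp stood at 498 and 312 CPM in vehicle replicates 2 and 3 and at 379 and 245 in SR-3420 replicates 1 and 3. With triacsin C, Thrsp read 439.8, 589.8 and 416 CPM in replicates 1 to 3 and 213, 198 and 145 in the 3 with SR-3420, and with etomoxir it read 268, 235 and 155 in replicates 1 to 3 and 214, 124 and 166 in the 3 with SR-3420. Its groups were apart only in the triacsin C setting, where the lowest sample without SR-3420 read 416 CPM and the highest with it 213. Thrsp fell there (log2 fold change -1.38, SE 0.28, adjusted p = 0.00184). It did not pass without an inhibitor (log2 fold change -0.38, SE 0.34, adjusted p = 0.570) or under etomoxir (log2 fold change -0.39, SE 0.27, adjusted p = 0.341). Leaving out single libraries moved the Thrsp value without an inhibitor between -0.72 and 0.00143, the highest being without vehicle replicate 2.

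Mid1ip1 (NM_026524, chrX:10294491-10296828 in mm9, plus strand) encodes the paralog of Spot 14 that drives assembly of the carboxylase. Mid1ip1 stood at 275 and 216 CPM in vehicle replicates 2 and 3 and at 189 and 160.2 in SR-3420 replicates 1 and 3. The triacsin C samples, replicates 1 to 3, read 235, 299 and 228 CPM for Mid1ip1, and 251, 239 and 198 with SR-3420 added, and the etomoxir samples read 166, 157 and 115, and 145, 139 and 117 with SR-3420 added. The groups with and without SR-3420 overlapped under both inhibitors and did not overlap without one. With TMM scaling and 1 mean per group in edgeR the Mid1ip1 change did not pass: without an inhibitor log2 fold change -0.50, SE 0.21, adjusted p = 0.182, under triacsin C log2 fold change -0.15, SE 0.17, adjusted p = 0.527, and under etomoxir log2 fold change -0.13, SE 0.17, adjusted p = 0.646. Scaled by total counts alone it passed without an inhibitor (-0.61, adjusted p = 0.0451).

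Triacsin C against vehicle asks what the synthetase inhibitor changed by itself. Acaca was the 1 member of 10 that was lower, beside 6.94% of all genes tested, with 2 lower at an unadjusted p under 0.05, beside 12.1%, and 1 by DESeq2, beside 8.96%. No member was higher by edgeR, beside 4.77% of all genes tested, with 1 at an unadjusted p under 0.05, beside 12.1%, and 0 by DESeq2, beside 6.41%. The fall of Acaca (log2 fold change -1.31, SE 0.13, adjusted p = 3.64e-05) took it from 269 ± 21.3 CPM (SD, n = 2) to 109 ± 11.5 CPM (SD, n = 3), and it held whichever library was left out. Mlxipl read higher without passing adjustment (log2 fold change 0.51, SE 0.22, unadjusted p = 0.0353, adjusted p = 0.167). Me1 read lower without passing (log2 fold change -0.45, SE 0.20, unadjusted p = 0.0439, adjusted p = 0.192), and it passed when only those groups were fitted (-0.51, adjusted p = 0.0392). The median log2 fold change of the 10 was -0.02, beside 0.07 over all genes tested. The vehicle samples also serve as controls for SR-3420 and for etomoxir, so the comparisons against them are not independent.

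Etomoxir against vehicle asks the same of the CPT1 inhibitor. By edgeR 0 members were higher, beside 0.0156% of all genes tested, and 0 were lower, beside 0.00782%. At an unadjusted p under 0.05 there were 0 higher and 5 lower, beside 0.907% and 1.31% of all genes, and DESeq2 called 0 in either direction, beside 0.0547% higher and 0.0782% lower. With 1 mean per group and TMM scaling all 10 members read below vehicle, and with total counts alone Me1 was above 0. Their median log2 fold change was -0.49, beside 0.01 over all genes tested. The lowest unadjusted p values belonged to Mid1ip1 (log2 fold change -0.75, SE 0.19, unadjusted p = 0.00151, adjusted p = 0.809) and Acaca (log2 fold change -0.53, SE 0.13, unadjusted p = 0.00155, adjusted p = 0.809). Scd2 was next (log2 fold change -0.74, SE 0.23, unadjusted p = 0.00643, adjusted p = 1). Acly and Thrsp were the other 2 with an unadjusted p under 0.05. The etomoxir samples of Acaca, between 178 and 198 CPM, all lay below the vehicle samples, at 254 and 284.

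Triacsin C added to SR-3420 compares the 2 groups that both received the ligand. Acaca was the 1 member of 10 that was lower, beside 3.55% of all genes tested, with 6 lower at an unadjusted p under 0.05, beside 12%, and 3 by DESeq2, beside 5.85%. By edgeR 0 were higher, beside 1.02% of all genes tested, with 0 at an unadjusted p under 0.05, beside 7.56%, and 0 by DESeq2, beside 3.57%. Acaca fell (log2 fold change -0.74, SE 0.13, adjusted p = 0.00836), a call that was lost without SR-3420 replicate 1 (-0.69, adjusted p = 0.115) and with only those groups fitted (adjusted p = 0.0764). Slc25a1 (log2 fold change -0.86, SE 0.26, adjusted p = 0.0827) and Scd1 (log2 fold change -0.87, SE 0.26, adjusted p = 0.0815) missed the threshold in edgeR and passed in DESeq2, with adjusted p = 0.0337 and 0.0204. The median log2 fold change of the 10 was -0.60, beside 0.02 over all genes tested. Mid1ip1 (0.40) and Scd2 (0.13) read above 0 without passing.

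Etomoxir added to SR-3420 left 0 members higher by edgeR, beside 0% of all genes tested, and 0 lower, beside 0.00782%. At an unadjusted p under 0.05 there were 0 higher and 5 lower, beside 3.01% and 6.99% of all genes, and DESeq2 called 0 higher, beside 0.0547%, and 1 lower, beside 0.618%. The 1 was Acaca, with adjusted p = 0.0219 in DESeq2 and a log2 fold change of -0.57 in edgeR (adjusted p = 0.213). All 10 read below 0, with a median of -0.53 beside -0.00 over all genes tested. This comparison and the one for triacsin C share the SR-3420 samples.

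Triacsin C against etomoxir, both without SR-3420, sets the block on activation beside the block on mitochondrial entry. By edgeR 4 of the 10 members were higher under triacsin C, Scd2, Mlxipl, Thrsp and Mid1ip1, beside 8.08% of all genes tested. Acaca was the 1 that was lower, beside 8.8% of all genes tested. At an unadjusted p under 0.05 there were 5 higher and 2 lower, beside 16.2% and 14.2% of all genes, and DESeq2 called 5 higher, beside 9.57%, and 1 lower, beside 11.3%. The median log2 fold change of the 10 was 0.55, beside 0.07 over all genes tested, and scaling by total counts alone shifted the median of all genes by -0.128. Scd2 (log2 fold change 0.97, SE 0.21, adjusted p = 0.00650) and Mid1ip1 (log2 fold change 0.80, SE 0.17, adjusted p = 0.00620) were higher whichever library was left out, and Acaca was lower whichever was left out (log2 fold change -0.78, SE 0.12, adjusted p = 0.000769). Their groups did not overlap, with Scd2 at 4172 CPM or more under triacsin C and at 2824 or less under etomoxir.

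The other 2 calls of that comparison rested on single libraries. Mlxipl was higher (log2 fold change 0.79, SE 0.19, adjusted p = 0.0129), and its log2 fold change was 0.66 (adjusted p = 0.0676) without triacsin C replicate 2, 0.75 (adjusted p = 0.0519) without etomoxir replicate 2 and 0.68 (adjusted p = 0.0575) without etomoxir replicate 3. Thrsp was higher (log2 fold change 1.13, SE 0.28, adjusted p = 0.0130), and its value was 0.96 (adjusted p = 0.0641) without triacsin C replicate 2 and 0.94 (adjusted p = 0.0568) without etomoxir replicate 3. Acly just missed (log2 fold change 0.54, SE 0.18, adjusted p = 0.0547) and passed without etomoxir replicate 1 (0.64, adjusted p = 0.0477) and in DESeq2 (adjusted p = 0.0363). Between the inhibitors with SR-3420 present, edgeR called 0 members higher under triacsin C, beside 0.117% of all genes tested, and 0 lower, beside 0.18%. At an unadjusted p under 0.05 there were 1 higher and 0 lower, beside 3.39% and 3.83% of all genes, and DESeq2 called 1 higher, beside 0.837%, and 0 lower, beside 0.798%. That 1 was Mid1ip1, whose groups did not overlap (log2 fold change 0.78, SE 0.17, adjusted p = 0.0986 in edgeR, and adjusted p = 0.00244 in DESeq2 and 0.0397 with total counts alone). The median log2 fold change of the 10 was 0.11 there, beside -0.01 over all genes tested.

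**Figure D3:**
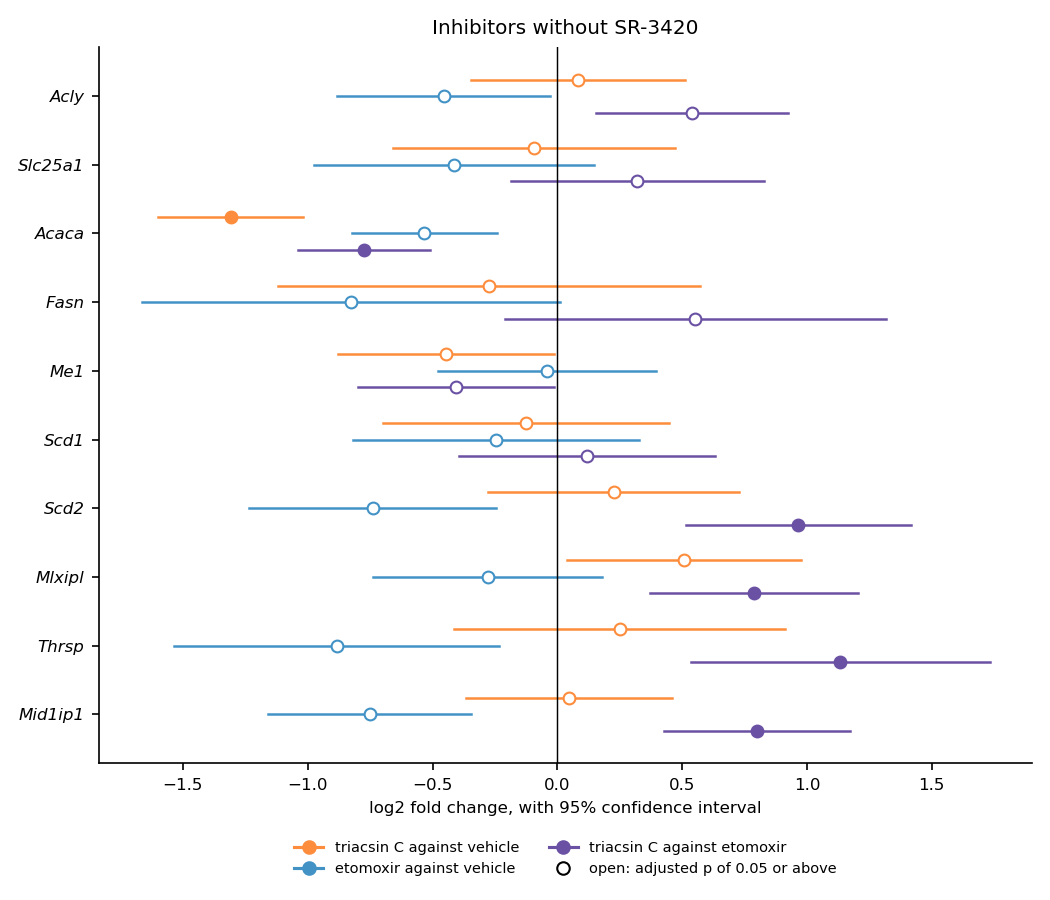
Log2 fold change (horizontal axis) of each member (vertical axis) for triacsin C against vehicle, etomoxir against vehicle and triacsin C against etomoxir, all without SR-3420; points are edgeR estimates, bars 95% confidence intervals, and filled points have an adjusted p under 0.05. Acaca lies at -1.31 for triacsin C against vehicle, and Scd2 at 0.97 for triacsin C against etomoxir.

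The difference between responses was tested for each pair of settings. For triacsin C minus no inhibitor, edgeR called 0 members higher, beside 1.24% of all genes tested, and 0 lower, beside 1.27%. At an unadjusted p under 0.05 there were 1 higher and 2 lower, beside 7.01% and 9.65% of all genes, and DESeq2 called 1 higher, Acaca, beside 3.39%, and 0 lower, beside 2.93%. Thrsp (log2 fold change -1.002, SE 0.43, unadjusted p = 0.0378, adjusted p = 0.261) and Mlxipl (log2 fold change -0.72, SE 0.30, unadjusted p = 0.0334, adjusted p = 0.247) were the 2 with the lower response. Their 95% confidence intervals ran from -1.94 to -0.07 and from -1.37 to -0.07. The median difference of the 10 was -0.56 log2, beside -0.04 over all genes tested, and scaling by total counts alone shifted the median of all genes by 0.131. For etomoxir minus no inhibitor, edgeR called 0 higher, beside 0% of all genes tested, and 0 lower, beside 0%. An unadjusted p under 0.05 was reached by 0 higher and 0 lower, beside 0.798% and 1.6% of all genes, and DESeq2 called 0 and 0, beside 0.0235% and 0.0469%. The median difference was -0.07 log2, beside -0.00.

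For triacsin C minus etomoxir, edgeR called 0 members higher, beside 1.52% of all genes tested, and 0 lower, beside 0.774%. At an unadjusted p under 0.05 there were 1 higher and 2 lower, beside 6.65% and 5.83% of all genes, and DESeq2 called 1 higher, Acaca, beside 3.47%, and 0 lower, beside 1.66%. The 2 lower ones were Thrsp (log2 fold change -0.99, SE 0.39, unadjusted p = 0.0237, adjusted p = 0.278) and Mlxipl (log2 fold change -0.71, SE 0.27, unadjusted p = 0.0213, adjusted p = 0.260). The median difference was -0.39 log2, beside -0.06 over all genes tested. So 8 members were called lower under triacsin C, 5 under etomoxir and 2 without an inhibitor, while with TMM scaling and 1 mean per group no member's difference between settings passed adjustment in edgeR. With total counts alone Acaca passed for triacsin C minus etomoxir (0.70, adjusted p = 0.0372). With a replicate block 6 members were lower without an inhibitor, beside 7.94% of all genes. Fasn and Scd2 were then added under etomoxir, beside 22.5%. Differences that passed with the block were Thrsp for triacsin C minus no inhibitor, and Acaca, Mlxipl, Thrsp and Scd2 for triacsin C minus etomoxir. The vehicle and SR-3420 groups had 2 samples each and the other groups 3.

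Within groups the members split by replicate number. Fasn was below its group mean in replicate 3 of all 6 groups, by -0.40 log2 on average, and so were Acly (-0.18), Mid1ip1 (-0.19) and Mlxipl (-0.17). Thrsp (-0.27) and Slc25a1 (-0.20) were below it in 5 of 6 groups. Scd2 (0.22) and Me1 (0.18) were below the mean in 0 of 6 replicate 3 samples, and Scd1 (0.19) in 1. Vehicle held replicates 2 and 3 and SR-3420 replicates 1 and 3, so their means rest on different numbers. Over the 16 samples, with each sample taken as its deviation from its group mean, Pearson r was 0.98 between Fasn and Acly, 0.96 between Fasn and Thrsp, 0.95 between Fasn and Mlxipl, and 0.98 between Slc25a1 and Thrsp. It was 0.93 between Me1 and Scd2, 0.82 between Scd1 and Scd2, and -0.77 between Fasn and Scd2. The 16 points share the same libraries and group means, and r is a description here.

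**Figure D4:**
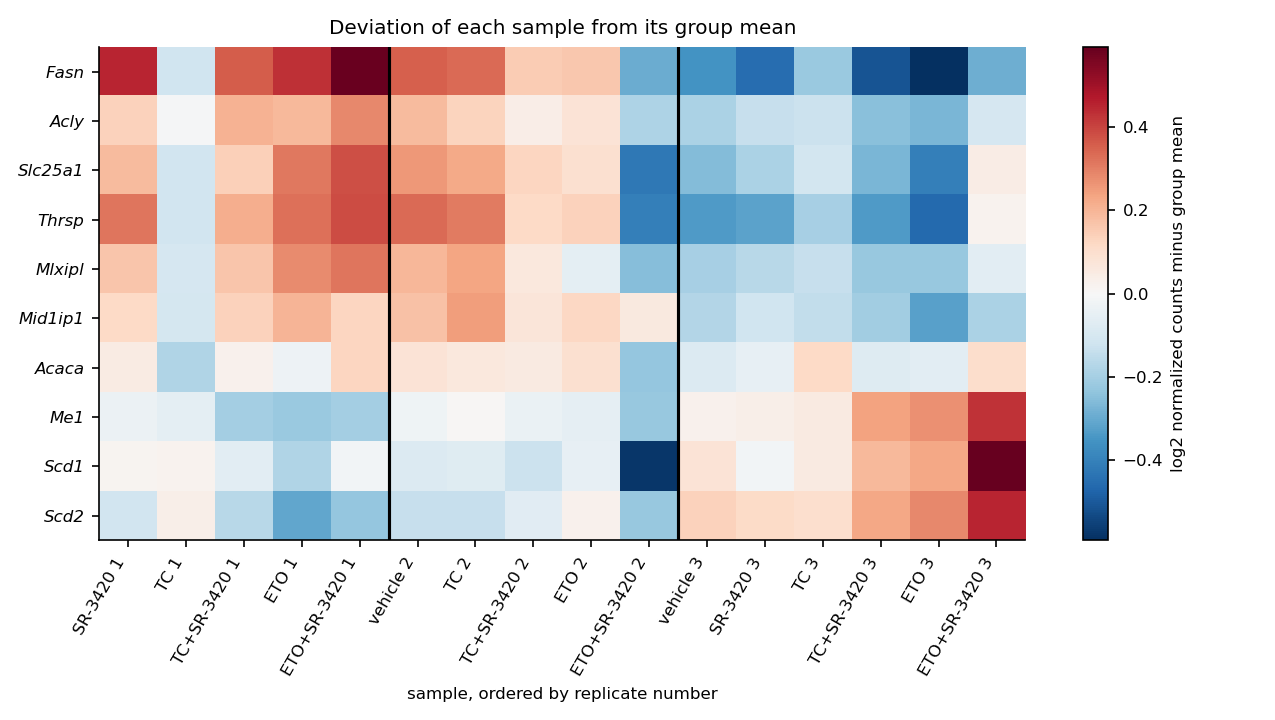
Log2 deviation (colour) of each sample (columns, ordered by replicate number) from its group mean for each member (horizontal bands). Fasn is below its group mean in replicate 3 of 6 of 6 groups and Scd2 in 0 of 6.

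Across the 16 samples and 10718 tested genes with a mean count of at least 50, the 5 genes most like Fasn were Sidt2, Slc25a10, Srebf1, 4930404N11Rik and Aacs, each with Pearson r of 0.98. The 5 most like Mlxipl were Sprtn (0.97), Alas1 (0.96), Fermt3 (0.96), Htra3 (0.95) and Pcyt2 (0.95). These values include differences between groups as well as between replicates.

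Other genes around the route were counted in 5 lists with 75 tested genes of 79 listed: regulators, acetyl-CoA and citrate supply, NADPH supply, carboxylase and synthase control, and elongation and desaturation. Without an inhibitor 3 of the 75 were higher after SR-3420, beside 4.75% of all genes tested, and 1 was lower, beside 2.79%. Under triacsin C 5 were higher, beside 17.3%, and 28 lower, beside 19.7%, and under etomoxir 2 were higher, beside 12.5%, and 21 lower, beside 12.8%. Over the 75, median log2 fold changes were -0.16, -0.34 and -0.34 in that order, beside -0.00, 0.02 and 0.01 over all genes tested. These counts depend on the setting: the 1 lower without an inhibitor became 9 in DESeq2, beside 5.32% of all genes, and 8 with total counts alone, and the 21 lower under etomoxir became 8 with only those groups fitted. Lower calls among all genes moved as well, from 357 to 572 with total counts alone without an inhibitor. Under etomoxir they moved from 1637 to 585 with only those groups fitted. Of 14 tested genes of acetyl-CoA and citrate supply, 1 was lower without an inhibitor (5 in DESeq2, beside 5.32%), 13 under triacsin C and 8 under etomoxir (4 with only those groups fitted), beside 2.79%, 19.7% and 12.8% of all genes tested, and all 14 read below 0 in all 3 settings. Of 13 tested genes of NADPH supply, 6 were lower under triacsin C, beside 19.7% of all genes tested, and 4 under etomoxir, beside 12.8%, the 4 becoming 2 without etomoxir with SR-3420 replicate 2 or with only those groups fitted. Of 17 tested genes of elongation and desaturation, 5 were lower under triacsin C, beside 19.7%, and 4 under etomoxir, beside 12.8%. The 4 became 0 with only those groups fitted, 1 without etomoxir replicate 2 or etomoxir with SR-3420 replicate 2, and 2 without etomoxir replicate 3 or etomoxir with SR-3420 replicate 1. Of 18 tested regulators, 3 were lower and 1 higher under triacsin C, beside 19.7% and 17.3%, and 2 lower and 1 higher under etomoxir, beside 12.8% and 12.5%. The 3 became 1 without triacsin C with SR-3420 replicate 2, and with only those groups fitted the 2 became 0. The 2 became 1 without etomoxir replicate 1, etomoxir replicate 2, etomoxir with SR-3420 replicate 2 or etomoxir with SR-3420 replicate 3. Of 13 tested genes of carboxylase and synthase control, 1 was lower and 3 higher under triacsin C, beside 19.7% and 17.3%, and 3 lower and 0 higher under etomoxir, beside 12.8% and 12.5%. The genes called without an inhibitor were Txnip, Trib3 and Fads3, higher, and Acss2, lower. Those higher under triacsin C were Txnip, Trib3, Prkag2, Rfwd2 and Me3, and those higher under etomoxir were Txnip and Fads3, where Me3 was named after its values were seen. Leaving out single libraries gave 0 to 1 higher and 0 lower over all lists without an inhibitor, whichever of the 4 was left out. It gave 3 to 5 higher under triacsin C, 3 without triacsin C replicate 3 or triacsin C with SR-3420 replicate 3, and 23 to 27 lower. Under etomoxir it gave 12 to 21 lower, 12 without etomoxir with SR-3420 replicate 2, and 2 to 4 higher, 4 without etomoxir replicate 3.

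Without an inhibitor the called genes each lost the call when single libraries were left out, and with only those groups fitted. Txnip was at 0.84 (adjusted p = 0.0176), and its adjusted p was 0.0998 without vehicle replicate 2, 0.114 without vehicle replicate 3 and 0.134 without SR-3420 replicate 1. Trib3, whose product binds the carboxylase and aids its degradation, was at 0.92 (adjusted p = 0.0185), with adjusted p of 0.175 without vehicle replicate 3, 0.1003 without SR-3420 replicate 1 and 0.0585 without SR-3420 replicate 3. Fads3, of the fatty acid desaturase family, was at 0.59 (adjusted p = 0.0499), with adjusted p of 0.108 without vehicle replicate 2, 0.278 without vehicle replicate 3, 0.211 without SR-3420 replicate 1 and 0.110 without SR-3420 replicate 3. The Fads3 call was also lost with DESeq2's size factors, with either other filter on low counts and with total counts alone, at adjusted p from 0.0521 to 0.0653. Acss2 was at -0.74 (adjusted p = 0.0347), with adjusted p of 0.173 without vehicle replicate 2, 0.0918 without vehicle replicate 3, 0.118 without SR-3420 replicate 1 and 0.153 without SR-3420 replicate 3. Under triacsin C, Rfwd2, a ubiquitin ligase gene, was at 0.67 (adjusted p = 0.0269), with adjusted p of 0.112 without triacsin C replicate 3 and 0.0993 without triacsin C with SR-3420 replicate 3. Me3, the mitochondrial NADP malic enzyme gene, was at 1.39 (adjusted p = 0.0331) at a mean level of 1.45 CPM, with adjusted p of 0.106 without triacsin C replicate 1, 0.124 without triacsin C replicate 3, 0.0962 without triacsin C with SR-3420 replicate 1 and 0.0544 without triacsin C with SR-3420 replicate 3.

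In acetyl-CoA supply, the mitochondrial pyruvate carrier gene Mpc1 fell after SR-3420, with log2 fold changes of -1.33 (adjusted p = 1.05e-05) under triacsin C and -0.82 (adjusted p = 0.000480) under etomoxir. Its partner Mpc2 fell too, at -1.24 (adjusted p = 3.32e-05) and -0.65 (adjusted p = 0.00466). Pcx, pyruvate carboxylase, was at -1.45 (adjusted p = 0.00418) under triacsin C. Under etomoxir Pcx was at -1.05 (adjusted p = 0.0333), with adjusted p of 0.125 without etomoxir replicate 1, 0.0812 without etomoxir replicate 2, 0.141 without etomoxir with SR-3420 replicate 2 and 0.0847 without etomoxir with SR-3420 replicate 3 and 0.102 with only those groups fitted. Acss2, which makes acetyl-CoA from acetate, fell at -1.11 (adjusted p = 0.000159) and -0.98 (adjusted p = 0.000723) under the inhibitors. In NADPH supply, G6pdx fell at -1.06 (adjusted p = 5.80e-05) and -0.74 (adjusted p = 0.00123), and Taldo1 at -1.17 (adjusted p = 8.46e-05) and -0.80 (adjusted p = 0.00221). These calls of Mpc1, Mpc2, Acss2, G6pdx and Taldo1 held whichever library was left out. Pgd at -1.14 (adjusted p = 0.000751) and Idh1 at -1.28 (adjusted p = 0.00201) also fell under triacsin C. Under etomoxir Idh1 was at -1.04 (adjusted p = 0.0108) and lost that call without etomoxir with SR-3420 replicate 2 (adjusted p = 0.0570) and with only those groups fitted (adjusted p = 0.0747). Pgd under etomoxir was at -0.64 (adjusted p = 0.0339), with adjusted p of 0.130 without etomoxir replicate 1, 0.0814 without etomoxir replicate 2, 0.113 without etomoxir with SR-3420 replicate 2 and 0.101 without etomoxir with SR-3420 replicate 3 and 0.0969 with only those groups fitted. Without an inhibitor G6pdx did not pass in edgeR with 1 mean per group at -0.51 (adjusted p = 0.0705). It passed in DESeq2 (adjusted p = 0.0162), with total counts alone (adjusted p = 0.0101) and with a replicate block (adjusted p = 0.00858).

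Among regulators, Srebf1, which encodes the transcription factor SREBP-1, did not pass in edgeR with 1 mean per group, at -0.32 (adjusted p = 0.678) without an inhibitor, -0.56 (adjusted p = 0.169) under triacsin C and -0.36 (adjusted p = 0.433) under etomoxir. Without an inhibitor the Srebf1 value was 0.0484 when vehicle replicate 2 was left out. Srebf2, Nr1h2 and Mlx did not pass in that fit either, nor did Acacb and Elovl6 of the other lists. Txnip, a target gene of ChREBP, rose under triacsin C, 0.75 (adjusted p = 0.00217), and under etomoxir, 0.82 (adjusted p = 0.00199), where the call was lost with only those groups fitted (adjusted p = 0.0603). It read 327 and 324 CPM in vehicle replicates 2 and 3 and 631 and 535 in SR-3420 replicates 1 and 3. Txnip in replicates 1 to 3 read 564, 535 and 565 CPM under triacsin C against 934, 855 and 1005 with SR-3420 added, and 329.9, 332 and 377 under etomoxir against 604, 468 and 765 with SR-3420 added. Arrdc4, a relative of Txnip named after its values were seen, was lower under triacsin C at -0.59 (adjusted p = 0.0111), a call lost without triacsin C with SR-3420 replicate 2 (adjusted p = 0.0710). Nr1h3, the liver X receptor alpha gene, was at -1.27 (adjusted p = 0.00500) under triacsin C and -0.97 (adjusted p = 0.0304) under etomoxir. The etomoxir call of Nr1h3 was lost with only those groups fitted (adjusted p = 0.0727), and its adjusted p was 0.118 without etomoxir replicate 1, 0.0745 without etomoxir replicate 2, 0.127 without etomoxir with SR-3420 replicate 2 and 0.0796 without etomoxir with SR-3420 replicate 3. Rxra was at -0.91 (adjusted p = 0.00821) under etomoxir, and its adjusted p was 0.0550 with only those groups fitted. Insig1, which retains SREBP in the endoplasmic reticulum, was at -0.78 (adjusted p = 0.0311) under triacsin C and did not pass without an inhibitor or under etomoxir. Its adjusted p was 0.0585 without triacsin C replicate 1, 0.117 without triacsin C replicate 2, 0.0526 without triacsin C with SR-3420 replicate 1, 0.0638 without triacsin C with SR-3420 replicate 2 and 0.110 without triacsin C with SR-3420 replicate 3.

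Of carboxylase control, Mlycd, which degrades malonyl-CoA, fell at log2 fold changes of -1.86 (adjusted p = 0.000103) under triacsin C and -1.04 (adjusted p = 0.00744) under etomoxir. Trib3 rose at 0.86 (adjusted p = 0.00176) under triacsin C, and Hlcs, which biotinylates the carboxylase, fell at -1.22 (adjusted p = 0.000337) under etomoxir. Prkag2, a subunit gene of the AMP-activated kinase, rose at 0.70 (adjusted p = 0.00916) under triacsin C and was lower at -0.54 (adjusted p = 0.0409) under etomoxir. The etomoxir call of Prkag2 was lost with no filter on low counts (adjusted p = 0.0733) and with only those groups fitted (adjusted p = 0.161), and its adjusted p was 0.105 without etomoxir replicate 2, 0.101 without etomoxir replicate 3, 0.122 without etomoxir with SR-3420 replicate 1 and 0.171 without etomoxir with SR-3420 replicate 2. Of desaturation and elongation, Fads2 fell at -0.71 (adjusted p = 0.00990) under triacsin C. Elovl3, an elongase gene, was at -0.77 (adjusted p = 0.0427) there, and leaving out any 1 of the 6 libraries lost the call, with adjusted p of 0.0819 without triacsin C replicate 1, 0.113 without triacsin C replicate 2, 0.0686 without triacsin C replicate 3, 0.0594 without triacsin C with SR-3420 replicate 1, 0.130 without triacsin C with SR-3420 replicate 2 and 0.117 without triacsin C with SR-3420 replicate 3. The Elovl3 call was also lost with no filter on low counts (adjusted p = 0.0799) and with total counts alone (adjusted p = 0.0513). Ptplb, a dehydratase gene of elongation, was at -0.85 (adjusted p = 0.0154) under etomoxir, with adjusted p of 0.0514 without etomoxir replicate 3, 0.0551 without etomoxir with SR-3420 replicate 1 and 0.0777 without etomoxir with SR-3420 replicate 2 and 0.0879 with only those groups fitted. Fads3 rose at 0.69 (adjusted p = 0.00263) under etomoxir, a call lost with only those groups fitted (adjusted p = 0.0634).

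**Figure D5:**
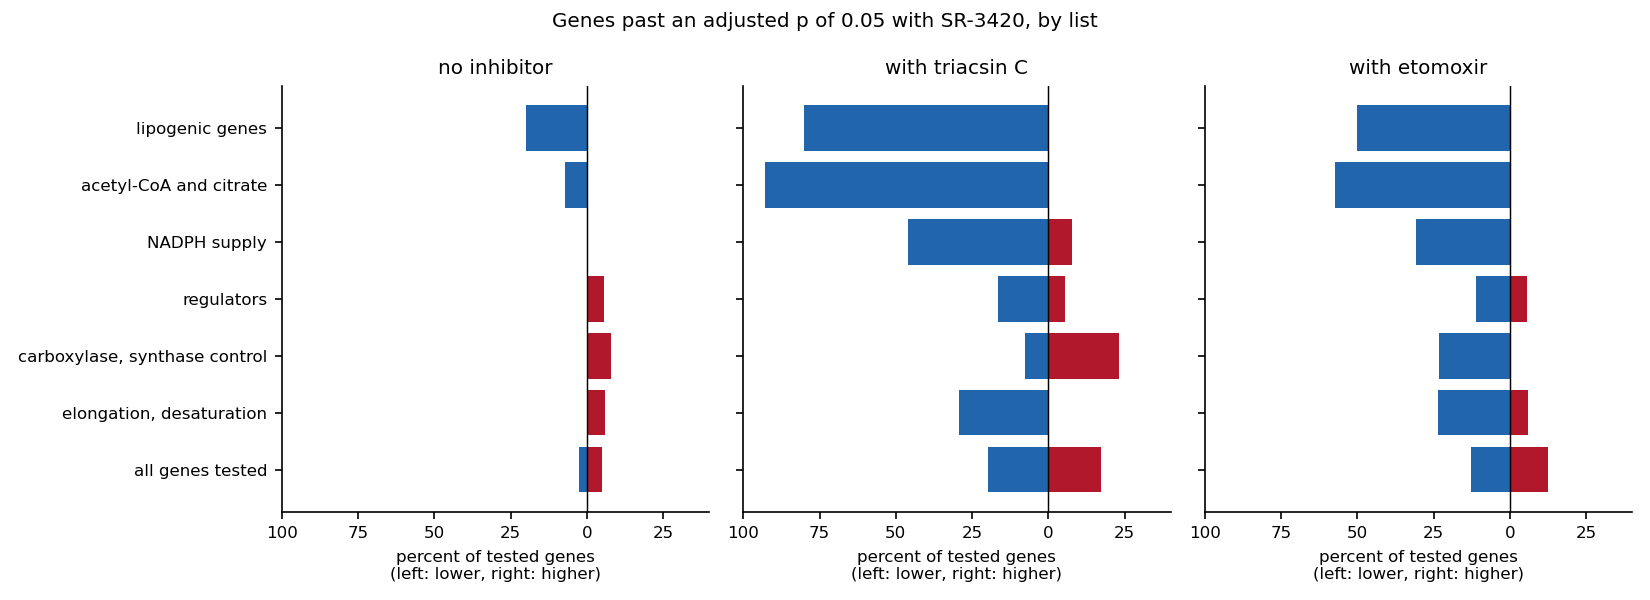
Percent of tested genes (horizontal axis) called lower or higher by edgeR after SR-3420 for the 10 members, each of the 5 other lists and all genes tested (vertical axis), without an inhibitor, under triacsin C and under etomoxir. Under triacsin C 8 of 10 members and 13 of 14 genes of acetyl-CoA and citrate supply were lower, beside 19.7% of all genes tested.

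Marker lists of cell types moved with the groups too. The brown adipocyte list also holds genes that are not limited to brown fat, such as Pparg. Of its 11 tested genes, 1 was lower after SR-3420 without an inhibitor, Pparg, beside 2.79% of all genes tested. Under triacsin C 5 were lower, beside 19.7%, and 2 higher, beside 17.3%, and under etomoxir 5 were lower, beside 12.8%, and 0 higher, beside 12.5%. Their summed level was 18518 and 18128 CPM in vehicle replicates 2 and 3 and 13555 and 12668 in SR-3420 replicates 1 and 3. Sums in replicates 1 to 3 were 18183, 18983 and 18897 CPM under triacsin C against 7726, 7669 and 8680.4 with SR-3420 added, and 17733, 17036 and 20492 under etomoxir against 10054, 7601 and 13471 with SR-3420 added. Fabp4 was the most abundant of them, and Dio2 was at 0 in 4 groups. Fabp4, Lpl, Adipoq, Cebpa and Plin1 carry that sum. Not all markers moved with it: without an inhibitor Ucp1 (1.22 against 2.26 CPM, adjusted p = 0.453), Cidea (17.4 against 29.4, adjusted p = 0.319) and Ppargc1a (51.6 against 59.4, adjusted p = 0.742) read higher with SR-3420 and did not pass. Under triacsin C, group means of Ebf2 (16.7 against 32.8 CPM), Prdm16 (7.90 against 13.1) and Ucp1 (1.85 against 3.20) were higher with SR-3420. Those of Cidea (21.7 against 16.1) and Ppargc1a (25.1 against 24.2) were lower. Under etomoxir, Ebf2 (39.0 against 52.9), Cidea (13.3 against 17.2) and Ucp1 (1.29 against 2.87) read higher, and Ppargc1a (67.2 against 52.3) and Prdm16 (29.2 against 21.2) lower. Of 8 preadipocyte or fibroblast markers, 3 were higher after SR-3420 under triacsin C, beside 17.3%, and 5 under etomoxir, beside 12.5%, and all 8 read above 0 without an inhibitor. Their sums were 1894 and 1638 CPM in vehicle and 4061 and 2955 in SR-3420, 2629, 2313 and 2001 under triacsin C against 4599, 3860.5 and 3072 with SR-3420 added, and 2285, 1656 and 1107 under etomoxir against 4768, 3479 and 2347 with SR-3420 added. Col1a1 was the most abundant of these, and none was at 0. Summed muscle markers ran from 7.29 to 18.8 CPM, macrophage markers from 4.33 to 18.4 and endothelial markers from 0.860 to 3.58, led by Des, Cd68 and Kdr. The triacsin C samples stood apart in the summed macrophage markers, through Cd68, with sums of 16.6, 18.4 and 17.2 CPM in replicates 1 to 3. With SR-3420 added these sums were 9.09, 9.19 and 8.44 CPM. No sample outside the triacsin C group had a sum above 10.3 CPM. The group mean of Cd68 was 15.5 CPM under triacsin C and 4.06 to 6.58 in the other groups. Emr1, Ptprc, Csf1r and Lyz2 had group means of 1.70 CPM or less, and of these only Emr1 was highest under triacsin C. The part of these lists in the result for the members was not tested.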

How the data were processed

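The authors deposited counts per gene. Reads were aligned to mm9 with STAR 2.4.2a, HOMER kept one read per position and read length, and iRNA-seq counted reads per gene. Keeping one read per position and length limits counts where reads per base are highest, as in Scd1, and strandedness of counting was not stated. Reads shared by Scd1 and Scd2 could not be examined. Counts were scaled by TMM and filtered by filterByExpr in edgeR 4.0.16 (R 4.3.3). Quasi-likelihood tests used 1 mean per group over the 16 samples, with Benjamini-Hochberg adjustment over 12786 genes. Genes called have an adjusted p under 0.05. Correlations used log2 CPM with a prior count of 2. Alternatives were DESeq2 1.42.0, its size factors, total counts alone, other filters, only the compared groups, a replicate block and leaving out each library. Figures used Python 3.11.15 and matplotlib 3.10.9. Members and lists were chosen with earlier results of these data known. All members were tested and counted in every comparison; the rule named them in each, but outside the comparisons of SR-3420 the text names only some. Of each other list, named genes were certain regulators and up to 3 genes per direction with the largest called change, groups that did not overlap and a mean of at least 50 normalized counts. Txnip, Srebf1 and similar regulators were always named.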

Additional observations from a re-analysis of the deposited data

How the results depend on the processing

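Of 120 fold changes (10 members in 12 comparisons), 116 kept direction and side of the threshold with DESeq2's size factors in edgeR, 108 with DESeq2's own test, 115 with no filter on low counts, 120 with at least 10 counts in every sample, 111 with only the compared groups fitted, 88 with a replicate block and 108 with total counts alone. Of 800 fold changes with 1 library left out, 718 did; 22 lost the call, some with a larger fold change, 2 gained it and 58 reversed. Members lower after SR-3420 without an inhibitor numbered 2, and 1 with no filter, 0 with only the compared groups, 6 with the block, beside 7.94% of all genes with the block, and 0 to 0 with a library left out. Lower calls among all genes went there from 357 to 210 with no filter and to 1 with only the compared groups. Under etomoxir 5 became 2 with only the compared groups and 7 with the block, beside 22.5%, Fasn (-0.60, adjusted p = 0.0190) and Scd2 (-0.42, adjusted p = 0.0151) being added. All genes went from 1637 lower to 585 under etomoxir with only the compared groups. The 8 under triacsin C were 8 with the block, beside 28.7%. With only the compared groups triacsin C against vehicle went from 1 lower to 2, while all genes went from 887 lower to 1004. Etomoxir against vehicle went from 0 lower to 1 with the block, beside 0.0156%. Triacsin C added to SR-3420 went from 0 higher to 1 with the block, beside 9.99%, and from 1 lower to 3 in DESeq2, 0 with only the compared groups, 7 with the block, beside 13.5%, and 0 to 1 with a library left out. All genes went in that comparison from 454 lower to 748 in DESeq2 and 69 with only the compared groups. Etomoxir added to SR-3420 went from 0 lower to 1 in DESeq2 and 6 with the block, beside 8.42%. Triacsin C against etomoxir had 4 higher, 6 with the block, beside 22.1%, and 2 to 5 with a library left out (2 without triacsin C replicate 2 or etomoxir replicate 3), and 1 lower, 2 with the block, beside 16.9%. With SR-3420 present that comparison went from 0 higher to 1 in DESeq2, with the block, beside 0.915%, and with total counts alone. The response difference of triacsin C minus none went from 0 to 1 higher in DESeq2 and to 1 lower with the block, beside 7.29%, and that of triacsin C minus etomoxir to 1 higher in DESeq2, with the block, beside 4.96%, and with total counts alone, and to 3 lower with the block, beside 3.29%. With the block the differences that passed were Thrsp (adjusted p = 0.0493) for triacsin C minus none, and Acaca (0.0333), Mlxipl (0.0298), Thrsp (0.0232) and Scd2 (0.0479) for triacsin C minus etomoxir. With the block Acly (adjusted p = 0.0245), Me1 (0.00831), Scd1 (0.0230) and Mid1ip1 (-0.47, adjusted p = 0.0197) also passed after SR-3420 without an inhibitor. Me1 had, with the block, a log2 fold change of 0.0134 for etomoxir against vehicle. Of the 75 other genes 10 were lower with the block without an inhibitor, beside 7.94% of all genes, and 34 under etomoxir, beside 22.5%. Higher ones went from 3 to 6 without an inhibitor, beside 11.1%. They went from 5 to 8 under triacsin C, beside 27.5%, and from 2 to 5 under etomoxir, beside 22.7%. Srebf1 passed with the block under triacsin C (-0.59, adjusted p = 0.0113) and G6pdx without an inhibitor (-0.55, adjusted p = 0.00858), and the 3 lower regulators under triacsin C became 7, beside 28.7%, and the 2 under etomoxir 4, beside 22.5%. Lower genes of elongation and desaturation went with the block from 5 to 8 under triacsin C and from 4 to 7 under etomoxir. Those of acetyl-CoA and citrate supply went from 8 to 13 under etomoxir and from 1 to 5 without an inhibitor. Fewer samples were fitted with only the compared groups; otherwise the cause was not tested. Replicate numbers did not pair across groups by the rule used: 35 same-number pairs correlated at a mean r of 0.41 and 71 others at -0.20. Of these pairs, 27 same-number ones and 25 others exceeded an r of 0.1. For 10 of 16 samples, the replicate number with the highest mean r was their own. These r used deviations from group means, which sum to 0 within a group. Same-number r above 0 therefore pull the others below 0, and -0.20 is no independent reference. Replicate numbers differed in how far they paired: the 15 pairs of replicate 3 correlated at 0.46 to 0.80. All 6 of those samples had their highest mean r with replicate 3, while same-number pairs of replicates 1 and 2 ran from -0.29 to 0.83. In the 3 comparisons of SR-3420 signs reversed for Acaca under triacsin C with no filter (0.0173), and with a library left out for Acaca there (-0.13 to 0.0112), for Mlxipl under etomoxir (-0.23 to 0.10), and without an inhibitor for Fasn (-0.89 to 0.0207), Mlxipl (-0.22 to 0.17), Thrsp (-0.72 to 0.00143) and Srebf1 (-0.69 to 0.0484), which is not a member. The other 50 of the 58 reversals were in other comparisons, 33 of them in response differences, and no reversed value of a member had, as reported, an adjusted p under 0.570 or a log2 fold change larger than 0.38 in size. A group left with 1 sample was assumed to vary like the other groups. Total counts alone lowered the share of higher calls among all calls from 63.0% to 44.9% for SR-3420 against vehicle and from 47.9% to 30.6% for triacsin C against etomoxir. Depth, 9452861 to 25670624 counts per library, limits Ucp1, Dio2 and Me3, which were at a few CPM or less, while the lowest level of a member in a library was 80.5 CPM (Mlxipl).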
